A study of Homo sapiens with 6 samples.

Results

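The AP-1 and immediate early genes examined here are FOS, FOSB, FOSL1, FOSL2, JUN, JUNB, JUND, EGR1, DUSP1 and IER3. Members were taken by gene symbol from the read counts of 6 libraries, and 9 of the 10 had a row among 15585 genes. IER3 was not analysed here. All 9 passed the filter on low counts, which left 11844 genes. The cells were U2OS, a human osteosarcoma cell line, sequenced 48 h after siRNA transfection, with 3 libraries from cells given control siRNA (siCTR) and 3 from cells given siRNA against LSD1 (siLSD1). LSD1, encoded by KDM1A, is a histone demethylase that removes methyl groups from lysine 4 of histone H3 and works in corepressor complexes. The study used the RNA-seq to ask whether LSD1 depletion changed the expression of DNA replication genes. Which LSD1 siRNA the libraries received is not given in the sources used here, so all siLSD1 libraries stand for siRNA transfection against LSD1 in a single cell line. Nothing says that the replicates came from separate cultures, and the p-values then measure only the spread between these libraries, which may be technical.

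AP-1 is a dimeric transcription factor made of a JUN protein (JUN, JUNB or JUND) with a second JUN protein or with a FOS protein (FOS, FOSB, FOSL1 or FOSL2). The proteins join through a leucine zipper and bind DNA with a basic region, mainly at the TRE and the related CRE. FOS, FOSB, JUN, JUNB and EGR1 are classical immediate early genes, whose RNA appears within minutes of a growth factor or stress signal, without new protein synthesis, and decays quickly. DUSP1 belongs to the same early wave and encodes a phosphatase that inactivates MAP kinases, which closes a negative feedback loop.

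In cells transfected with siLSD1, none of the 9 genes passed an adjusted p of 0.05 in the quasi-likelihood test of edgeR, with p-values adjusted over all tested genes by the Benjamini-Hochberg method, a threshold that 1.44% of all tested genes passed. The log2 fold change (siLSD1 against siCTR) was above 0 for 8 of the 9 and below 0 for JUNB, with a range of -0.10 to 0.47. Its median over the 9 genes was 0.29, beside a median of -0.01 over all tested genes, of which 47.3% were above 0. An unadjusted p under 0.05 was reached by 3 genes, FOS, JUN and DUSP1, all with higher levels in siLSD1. Of all tested genes, 7.48% were higher and 6.55% were lower at that threshold, which DESeq2 and limma-voom gave for JUN and DUSP1 alone. In 4 genes, FOS, JUN, EGR1 and DUSP1, every siLSD1 library lay above every siCTR library in CPM (reads scaled to the library total with TMM), and in none did every siLSD1 library lie below. Among all tested genes, 11.4% had the first order and 9.97% the second. The fit took no account of the replicate numbers. With the number as a block, DUSP1 passed the adjusted threshold, as did 7.57% of all tested genes.

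The promoters of FOS, JUN, EGR1 and DUSP1 are shown because their siCTR and siLSD1 libraries did not overlap. Each line gives the 250 bases before the RefSeq start site, 5′ to 3′ on the strand of the gene, at chr14:75278578-75278827 (+ strand) for FOS, chr1:58784048-58784297 (- strand) for JUN, chr5:138465229-138465478 (+ strand) for EGR1 and chr5:172771196-172771445 (- strand) for DUSP1, in GRCh38.p14. Capitals mark every match to the TRE (TGANTCA), the CRE (TGACGTCA), an EGR site (GCGGGGGCG or GCGTGGGCG) or a CArG box, the core of the serum response element, each searched on both strands, and to the TATA box (TATAAA) on the strand of the gene.
FOS: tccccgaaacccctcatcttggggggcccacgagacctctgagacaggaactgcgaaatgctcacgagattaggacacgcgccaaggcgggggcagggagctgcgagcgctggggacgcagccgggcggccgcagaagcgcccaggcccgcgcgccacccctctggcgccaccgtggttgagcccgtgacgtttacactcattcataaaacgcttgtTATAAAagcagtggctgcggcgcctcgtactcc
JUN: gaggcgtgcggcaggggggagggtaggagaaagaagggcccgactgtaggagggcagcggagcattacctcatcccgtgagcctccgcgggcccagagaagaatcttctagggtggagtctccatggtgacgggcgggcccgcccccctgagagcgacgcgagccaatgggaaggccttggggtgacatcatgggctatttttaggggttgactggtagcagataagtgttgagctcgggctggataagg
EGR1: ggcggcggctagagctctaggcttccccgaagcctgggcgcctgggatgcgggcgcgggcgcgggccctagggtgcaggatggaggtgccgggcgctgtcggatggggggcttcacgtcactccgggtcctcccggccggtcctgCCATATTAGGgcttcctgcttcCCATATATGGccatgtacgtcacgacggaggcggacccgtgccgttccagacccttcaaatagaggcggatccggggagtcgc
DUSP1: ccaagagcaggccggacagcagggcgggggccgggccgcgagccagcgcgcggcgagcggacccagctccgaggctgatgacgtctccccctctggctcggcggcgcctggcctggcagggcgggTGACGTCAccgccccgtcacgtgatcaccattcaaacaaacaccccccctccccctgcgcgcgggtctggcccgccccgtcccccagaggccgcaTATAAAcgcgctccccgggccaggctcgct

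In these windows EGR1 had 2 CArG boxes, of 10 bases each, which began 105 and 83 bases before the start. A CArG box, the binding sequence of the serum response factor, was found in 1.16% of 35116 RefSeq windows of the same length and in 1 of the 8 members with a sequence. DUSP1 had a CRE that began 125 bases before the start and a TATA box 30 bases before it. JUND had a CRE too, 200 bases before its start, and 1.65% of all windows held one. A TATA box was found in FOS, FOSB, JUNB and DUSP1, beside 6.80% of all windows. No TRE and no EGR site was found in the 8 windows, and 6.57% and 5.37% of all windows held one. The JUN window held none of the searched motifs. A match is a description of letters and not a measured binding site, and a motif can lie outside the window. FOSL1 and IER3 had no sequence in the table.

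KDM1A was measured first as a check of the labels. It was at 489 ± 16.4 CPM with siCTR and 90.4 ± 6.92 CPM with siLSD1 (SD, n = 3 each), and all 3 libraries of each group lay on the side their labels give. The libraries held 12513511 to 13561344 counted reads. They differed in how they recovered GC-rich genes. In genes with a GC content between 65 and 70%, the median log2 CPM relative to the mean of all libraries ran from -0.51 in siLSD1 replicate 3 to 0.25 in siCTR replicate 1. Of the osteoblast and mesenchymal markers, ALPL, COL1A1 and VIM passed the filter, whereas RUNX2, SP7 and SPARC had 0 to 4 reads in every library. Of the markers of other cell types, PTPRC and LYZ (blood) had 0 or 1 read and PECAM1 (endothelium) 0 to 3 reads in every library. The summed level of the blood markers was 1.49 to 3.03 CPM in siCTR and 1.11 to 3.23 CPM in siLSD1. That of the epithelial markers was 29.2 to 34.5 and 31.1 to 37.6 CPM. Within it CDH1, which encodes E-cadherin, had 95, 80 and 66 reads in siCTR and 154, 117 and 143 reads in siLSD1 (log2 fold change 0.77, edgeR adjusted p = 0.0699), whereas CLDN4 was at -0.20. That of the endothelial markers, nearly all of it from VWF, was 4.84 to 8.09 and 11.5 to 12.9 CPM, and VWF passed the test (edgeR adjusted p = 0.0418). Their part in the results was not tested.

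**Figure D1:**
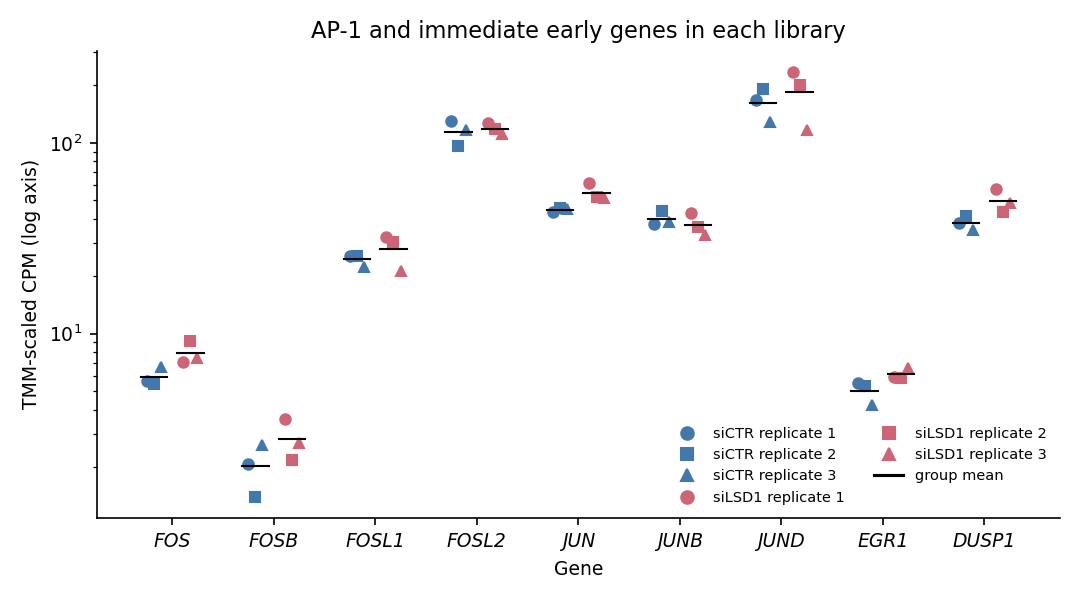
TMM-scaled CPM (log axis) of the 9 measured genes in each of 6 libraries, with circles, squares and triangles for replicates 1, 2 and 3 and bars for group means of 3 libraries. JUND and FOSL2 sit highest and FOSB lowest, and the groups are separate for FOS, JUN, EGR1 and DUSP1.

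The levels of the 9 genes covered a wide range. They were compared in FPKM, reads scaled to gene length and library total, because the gene lengths behind the authors' values ran from 1.82 kb for JUNB to 6.79 kb for FOSL2. JUND, the most constitutive JUN gene, was at 92.9 ± 24.4 FPKM (SD over 6 libraries), above 95.2% of the tested genes. DUSP1 with 21.7 ± 4.04 FPKM and JUNB with 21.2 ± 2.30 FPKM followed. DUSP1 was below JUNB in the 3 siCTR libraries (17.2 to 20.3 against 20.9 to 23.9 FPKM) and above it in the 3 siLSD1 libraries, and over all 6 libraries their levels overlapped. FOSL2 was next with 17.1 ± 1.96 FPKM, in every library below JUNB and above FOSL1. FOSL1 and JUN, with ranges of 11.5 to 17.7 and 12.4 to 17.5 FPKM over the 6 libraries, could not be ordered, since FOSL1 was higher in 4 of 6 libraries. FOS, EGR1 and FOSB lay far lower, at 2.35 ± 0.459, 1.78 ± 0.253 and 0.435 ± 0.134 FPKM, and kept that order in each of the 6 libraries. FOSB was above 5.02% of the tested genes in FPKM.

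FOS (chromosome 14, 75278826 to 75282230, + strand) encodes the founding FOS protein, which does not pair with itself and binds DNA mainly as a dimer with JUN proteins. Reads are given in the order of replicates 1, 2 and 3. FOS had 73, 70 and 90 reads in siCTR and 95, 114 and 101 reads in siLSD1. The highest siCTR library, replicate 3, was close to the lowest siLSD1 library, replicate 1, and the groups did not overlap. The level was 5.92 ± 0.674 CPM with siCTR and 7.90 ± 1.10 CPM with siLSD1 (SD, n = 3 each). This is 1.33-fold (95% confidence interval 1.00 to 1.77) or 0.41 ± 0.19 on the log2 scale (fold change ± SE, edgeR adjusted p = 0.347). As for every gene here, the RNA of a whole culture was measured, so more cells with the transcript and more transcript per cell cannot be told apart.

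FOSB (chromosome 19, 45467995 to 45475179, + strand), which like FOS is induced by growth factors, had the fewest reads of the 9 genes. It had 27, 18 and 35 reads in siCTR and 48, 27 and 36 reads in siLSD1. The groups overlapped, and siCTR replicate 2 and siLSD1 replicate 1 lay at the ends. Its log2 fold change of 0.47 had the widest error of the 9 genes, with a 95% confidence interval of 0.867-fold to 2.20-fold (edgeR adjusted p = 0.526). It was 0.26 without siCTR replicate 2, 0.25 without siLSD1 replicate 1 and 0.69 without siCTR replicate 3.

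FOSL1 and FOSL2 encode FRA-1 and FRA-2, FOS proteins that lack the strong activation domain of FOS and appear later after a stimulus. FOSL1 (chromosome 11, 65892049 to 65900573, - strand) had 333, 328 and 301 reads in siCTR and 432, 377 and 287 reads in siLSD1. Replicates 1 and 2 of siLSD1 were the 2 highest libraries and replicate 3 was the lowest. The change was 1.14-fold (95% confidence interval 0.895 to 1.45). On the log2 scale it was 0.19, but 0.07 without siLSD1 replicate 1 and 0.35 without siLSD1 replicate 3. FOSL2 (chromosome 2, 28392448 to 28417317, + strand) had 1696, 1235 and 1571 reads in siCTR and 1703, 1464 and 1495 reads in siLSD1. Its lowest library was siCTR replicate 2, and the siLSD1 libraries lay within the range of the siCTR libraries in CPM. The change was 1.03-fold (95% confidence interval 0.854 to 1.25). The log2 fold change of FOSL2 was 0.05, but -0.06 without siCTR replicate 2 and -0.0050 without siLSD1 replicate 1. In edgeR, FOSL1 had an adjusted p of 0.634 and FOSL2 of 0.898.

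JUN (chromosome 1, 58776845 to 58784048, - strand), the JUN protein with the strongest transactivation, varied little between control libraries. It had 563, 584 and 604 reads in siCTR, and 823, 647 and 694 reads in siLSD1. The siLSD1 libraries were all above the siCTR libraries, and replicate 1 stood highest. The level was 44.6 ± 1.10 CPM with siCTR and 54.9 ± 5.57 CPM with siLSD1 (SD, n = 3 each), which is 1.23-fold (95% confidence interval 1.03 to 1.47). On the log2 scale this was 0.30 ± 0.12 (SE), and the edgeR p was 0.0260 before and 0.272 after adjustment.

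JUNB (chromosome 19, 12791486 to 12793315, + strand) encodes a weaker activator that can oppose JUN. It had 488, 566 and 518 reads in siCTR and 574, 453 and 441 reads in siLSD1. The groups overlapped, with siLSD1 replicate 1 among the siCTR values and siLSD1 replicates 2 and 3 lowest in CPM. The log2 fold change was -0.10, which is 0.931-fold (95% confidence interval 0.760 to 1.14, edgeR adjusted p = 0.765). Its exon shares 259 bases with an exon of HOOK2 on the opposite strand, and whether the counting used strand is not given in the sources used here.

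JUND (chromosome 19, 18279694 to 18281622, - strand), which is expressed in most cells without a stimulus and restrains growth in several settings, had the most reads of the 9 genes. It had 2164, 2451 and 1737 reads in siCTR and 3153, 2500 and 1569 reads in siLSD1. Both the highest and the lowest library were siLSD1 libraries, replicates 1 and 3. The level was 162 ± 31.1 CPM with siCTR and 184 ± 61.0 CPM with siLSD1 (SD, n = 3 each), which differed by 0.18 ± 0.21 on the log2 scale (SE, edgeR adjusted p = 0.739). Without siLSD1 replicate 1 this difference was -0.03, and with replicate 3 left out instead it was 0.43. In the second set of read counts that the authors deposited for the same libraries, JUND had 1.37 times the reads of the first set, whereas the median ratio was 1.11 over 10311 genes with a mean of at least 50 reads. A ratio as high as that of JUND was found in 0.446% of these genes. The change of JUND was 0.17 on the log2 scale in the second set.

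EGR1 (chromosome 5, 138465479 to 138469303, + strand) encodes a zinc finger transcription factor and is one of the fastest genes to respond to serum. It had 72, 68 and 57 reads in siCTR and 80, 73 and 89 reads in siLSD1. The groups did not overlap in CPM, but siLSD1 replicate 2 with 5.86 CPM was close to siCTR replicate 1 with 5.54 CPM. The change was 1.22-fold (95% confidence interval 0.911 to 1.64), with an edgeR adjusted p of 0.531.

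DUSP1 (chromosome 5, 172768096 to 172771195, - strand) had the lowest p of the 9 genes. It had 492, 533 and 467 reads in siCTR and 767, 543 and 652 reads in siLSD1. Replicate 1 of siLSD1 stood highest, and siLSD1 replicate 2 with 43.6 CPM was close to siCTR replicate 2 with 41.5 CPM. The level was 38.0 ± 3.39 CPM with siCTR and 49.7 ± 6.89 CPM with siLSD1 (SD, n = 3 each), which is 1.31-fold (95% confidence interval 1.07 to 1.60). On the log2 scale this was 0.39 ± 0.13 (SE), with an edgeR p of 0.0134 before and 0.211 after adjustment. With the replicate number as a block in the fit, DUSP1 passed the adjusted threshold, as did 7.57% of all tested genes.

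The unadjusted calls of FOS, JUN and DUSP1 depended on single libraries. The number of genes at that threshold was 1 of 9 without siCTR replicate 1, without siCTR replicate 3 or without siLSD1 replicate 1, 2 of 9 (JUN and DUSP1) without siCTR replicate 2 or siLSD1 replicate 2, and 4 of 9 without siLSD1 replicate 3. Of all tested genes, 5.07 to 7.72% were higher at that threshold in these 6 fits, so that 1 of 9 is near the share of all genes. Over the 6 fits the log2 fold change ran from 0.30 to 0.51 for FOS, 0.21 to 0.35 for JUN, 0.18 to 0.36 for EGR1, 0.27 to 0.48 for DUSP1 and -0.22 to -0.02 for JUNB. For FOS, JUN, EGR1 and DUSP1, whose groups do not overlap, leaving out 1 library could hardly turn the direction.

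**Figure D2:**
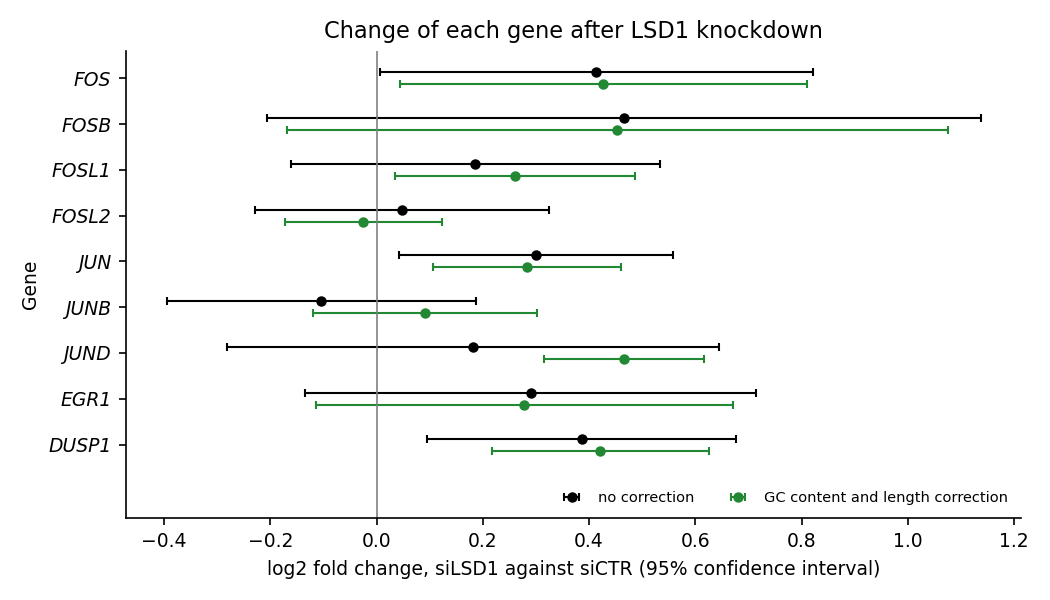
Log2 fold change of the 9 genes, siLSD1 against siCTR, with 95% confidence intervals from edgeR, for the counts as deposited (black) and after the correction for GC content and length (green). The interval of JUND narrows most with the correction, from -0.28 to 0.64 without it to 0.32 to 0.62 with it.

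The calls moved when the libraries were corrected for GC content and transcript length, by taking out each library's smoothed trend along both. JUN, JUND and DUSP1 then passed the adjusted threshold, with log2 fold changes of 0.28, 0.47 and 0.42 and edgeR adjusted p-values of 0.0491, 0.00169 and 0.0168. In this fit 8.60% of 11761 genes passed that threshold, many more than without the correction. At an unadjusted p under 0.05, 5 of the 9 genes were higher, the others being FOS and FOSL1, beside 12.7% of all genes. JUND moved most, from 1.13-fold to 1.38-fold (95% confidence interval 1.24 to 1.53). FOSL2 and JUNB changed sign, to -0.02 and 0.09, both with intervals that held 0. FOS (0.43), FOSB (0.45) and EGR1 (0.28) hardly moved.

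JUND has the most GC-rich transcript of the 9 genes, with 69.9% GC, more than 99.6% of tested genes. JUNB has 64.9%, and the other genes between 52.8 and 58.7%. On the log2 scale and relative to its mean over the 6 libraries, JUND was at -0.01, 0.18 and -0.38 in siCTR and at 0.48, 0.26 and -0.53 in siLSD1. The medians of all genes of 65 to 70% GC were 0.25, 0.11 and -0.05 in siCTR and 0.22, 0.02 and -0.51 in siLSD1. JUND was thus above these genes in siCTR replicate 2 and in siLSD1 replicates 1 and 2, close to them in siLSD1 replicate 3 and below them in siCTR replicates 1 and 3. Its GC content lies at the upper edge of this range, and in the 49 genes of 70 to 75% GC the median was -0.80 in siLSD1 replicate 3. The part of GC content in the uncorrected values of single genes was not tested beyond this correction, which assumes that LSD1 depletion itself does not shift GC-rich genes.

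**Figure D3:**
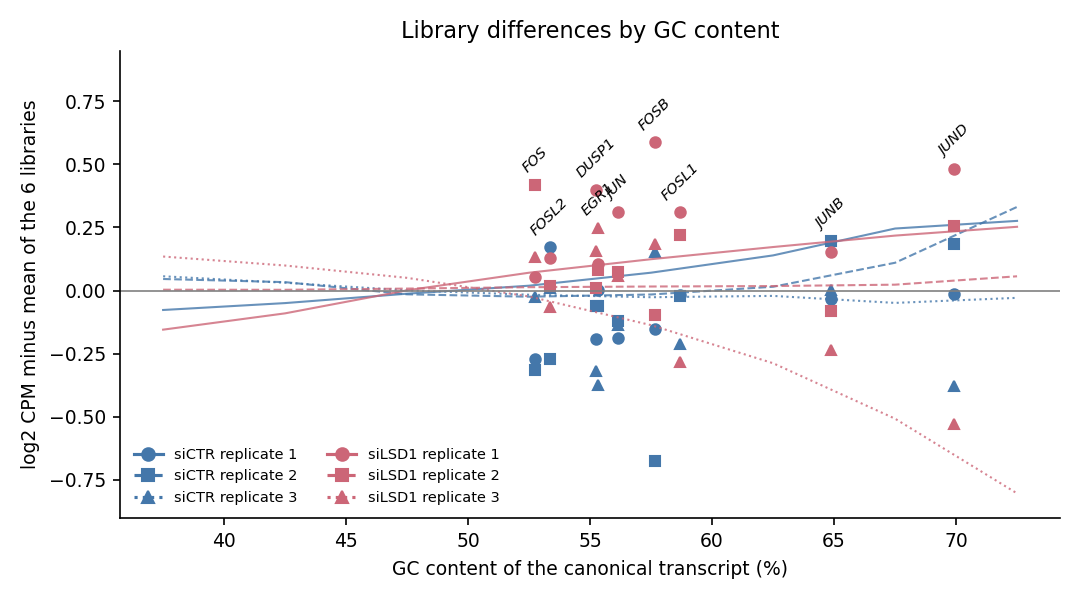
Log2 CPM of the 9 genes in each library minus the gene's mean over the 6 libraries, against the GC content of the canonical transcript, where lines are the medians of all tested genes in bins of 5 percentage points of GC, in the colour and line style of their library. The line of siLSD1 replicate 3 falls to -0.51 between 65 and 70% GC, where JUND lies.

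The makeup of each family was then compared as shares of the family's summed FPKM, which stands for RNA and not for dimers. The FOS family consisted mostly of FOSL2 and FOSL1. FOSL2 made up 51.6 ± 4.02% (SD, n = 3) of the FOS family in siCTR and 48.9 ± 3.38% in siLSD1, and FOSL1 41.1 ± 4.36% and 42.1 ± 4.03%. FOS made up 6.22 ± 0.850% in siCTR and 7.58 ± 1.25% in siLSD1, from 5.40, 6.15 and 7.09% in siCTR and 6.14, 8.36 and 8.25% in siLSD1. The groups overlapped for the share of FOS, in siCTR replicates 2 and 3 and siLSD1 replicate 1. FOSB stayed between 0.837 and 1.64%.

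In the JUN family, JUND made up 65.8 to 75.7% of the FPKM in every library. The share of JUN was 10.5 ± 1.60% (SD, n = 3) in siCTR and 12.0 ± 2.87% in siLSD1, and that of JUNB 18.2 ± 1.97% and 15.7 ± 2.81%. The summed FPKM was 32.5 ± 3.07 in siCTR and 35.8 ± 4.57 in siLSD1 for the FOS family, and 121 ± 17.3 and 135 ± 37.5 for the JUN family. For these 7 shares and 2 sums the exact permutation test, two-sided, gave p-values of 0.3 or more, and 0.675 or more after Benjamini-Hochberg adjustment over 9 tests. With 3 libraries against 3 it cannot go below 0.1, so no difference could have passed 0.05, and the values are a description.

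**Figure D4:**
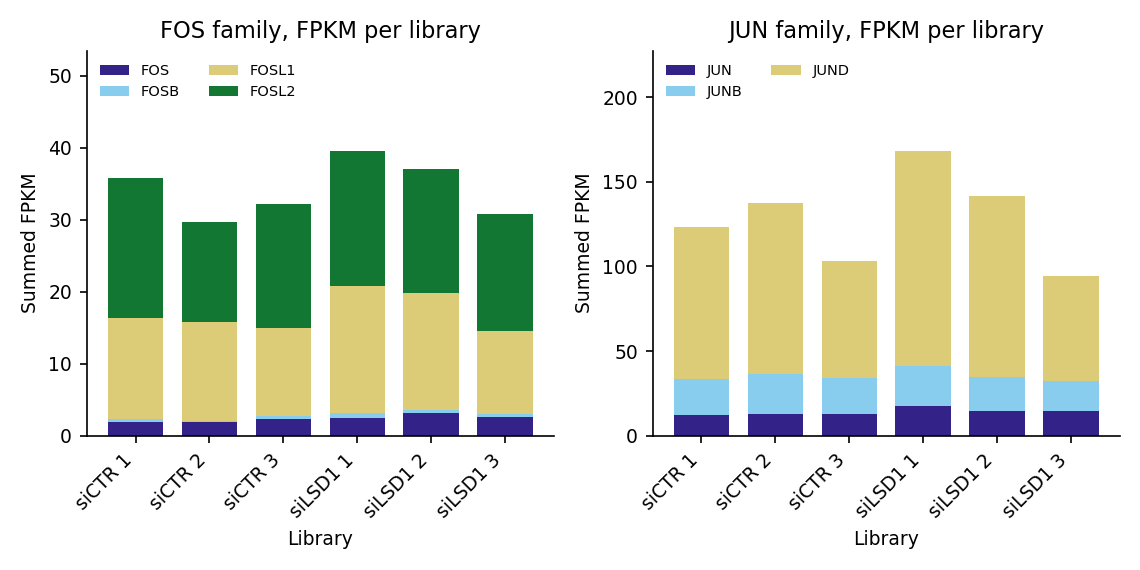
Summed FPKM of the FOS family and of the JUN family in each library, stacked by gene. FOSL2 and FOSL1 fill nearly all of the FOS family, JUND fills 65.8 to 75.7% of the JUN family, and the heights of the siCTR and siLSD1 bars overlap.

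Genes around AP-1 were counted in lists written from general knowledge, but with earlier results of these data known. The counts are a description, and no list was tested as a set. Of the other AP-1 dimer partners, 4 were tested and all had a log2 fold change above 0, with a median of 0.39. None passed the adjusted threshold, and 3 reached an unadjusted p under 0.05, all higher, beside 7.48% of all tested genes. These were ATF7 (0.50), JDP2 (0.43) and ATF3 (0.35), with edgeR adjusted p-values of 0.185, 0.202 and 0.278. With the GC content and length correction, under which 8.60% of all genes passed, ATF7 passed too (edgeR adjusted p = 0.0344). Without siCTR replicate 2 the log2 fold change of ATF7 was 0.31, and without siLSD1 replicate 1 that of JDP2 was 0.27 (edgeR unadjusted p = 0.0808). ATF3 was named after its value was seen. ATF7 and ATF3 are CREB-family proteins that dimerize with JUN, and JDP2 is a repressor that does the same. The partner ATF2 had a log2 fold change of 0.05. It too was named after its value was seen.

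Of 37 further immediate early genes, 34 were tested, and EGR2, EGR3 and EGR4, the paralogs of EGR1, had 0 to 3 reads in every library. CCN1 and CCN2, secreted matrix proteins that are also targets of YAP, rose. CCN1 was at 181 ± 5.58 CPM with siCTR and 336 ± 11.2 CPM with siLSD1 (SD, n = 3 each), and CCN2 at 92.3 ± 6.34 and 173 ± 4.42 CPM. Their log2 fold changes were 0.89 and 0.91, each at an edgeR adjusted p of 0.00149. The other 32 did not pass, and of all tested genes 1.44% passed. Counting CCN1 and CCN2, 9 genes of the list were higher and 3 lower at an unadjusted p under 0.05, beside 7.48% and 6.55% of all tested genes, and the median log2 fold change of the list was 0.07.

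Kinases and transcription factors upstream of the early genes, such as RAF, MEK and ERK kinases and the ELK factors, were nearly even, with 12 of 22 above 0, a median of 0.02 and a range of -0.30 to 0.31. None passed the adjusted threshold. The lowest unadjusted p-values were those of MAPK9 (-0.30), which encodes the JUN kinase JNK2, and RPS6KA5 (0.31), which encodes the kinase MSK1, with edgeR adjusted p-values of 0.264 and 0.285. MAPK9 passed with the GC content and length correction (edgeR adjusted p = 0.0272), as did 8.60% of all genes. Of the feedback inhibitors and outputs of ERK signalling, such as DUSP6, SPRY2 and SPRED1, 14 were tested, 7 above 0 and 7 below, with a median of 0.01. ETV4, an ETS factor induced by ERK, was the only one at an unadjusted p under 0.05. Of all tested genes 7.48% were higher and 6.55% lower there, so this count is near the share of all genes. ETV4 had a log2 fold change of 0.32 and an edgeR adjusted p of 0.260. With the GC content and length correction its edgeR adjusted p became 0.00891, in the fit where 8.60% of all genes passed.

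Of 24 known AP-1 target genes, 16 were tested, with a median of 0.07. The interstitial collagenase gene MMP1 had 0 to 2 reads in every library. The adjusted threshold was passed by 3 of the 16, beside 1.44% of all tested genes, and of these 3 AREG rose and CCND1 fell. AREG, an EGF family growth factor, had 4, 2 and 4 reads in siCTR and 23, 17 and 23 reads in siLSD1, which is 6.09-fold (95% confidence interval 3.12 to 11.9, edgeR adjusted p = 0.0129). With so few siCTR reads, AREG passed the filter on low counts only through the siLSD1 libraries. Its p and its place among the 3 genes are therefore only a description. CCND1, which encodes cyclin D1, was at 191 ± 16.7 CPM with siCTR and 120 ± 5.16 CPM with siLSD1 (SD, n = 3 each, log2 fold change -0.67, edgeR adjusted p = 0.0113).

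The calls of AREG and CCND1 rested on single libraries in part. The highest edgeR adjusted p with 1 library left out was 0.0639 for AREG, without siCTR replicate 2, and AREG also missed the threshold without siCTR replicate 3 or siLSD1 replicate 1 (0.0520 and 0.0541). For CCND1 it was 0.0902 without siLSD1 replicate 2 and 0.0618 without siCTR replicate 3. CCN1 and CCN2 passed in every alternative run. Heat shock genes are a group that responds to protein damage and other stress. All 9 that were tested had log2 fold changes below 0, from -0.34 to -0.01. Of all 11844 tested genes, 6246 were below 0. No heat shock gene passed the adjusted threshold. HSPH1, a chaperone of the HSP110 family, was at -0.27 with an edgeR unadjusted p of 0.0480. At an unadjusted p under 0.05, 6.55% of all tested genes were lower. With the GC content and length correction HSPH1 passed (edgeR adjusted p = 0.0352), as did 8.60% of all genes. The relation of the heat shock genes to the early genes was not tested.

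**Figure D5:**
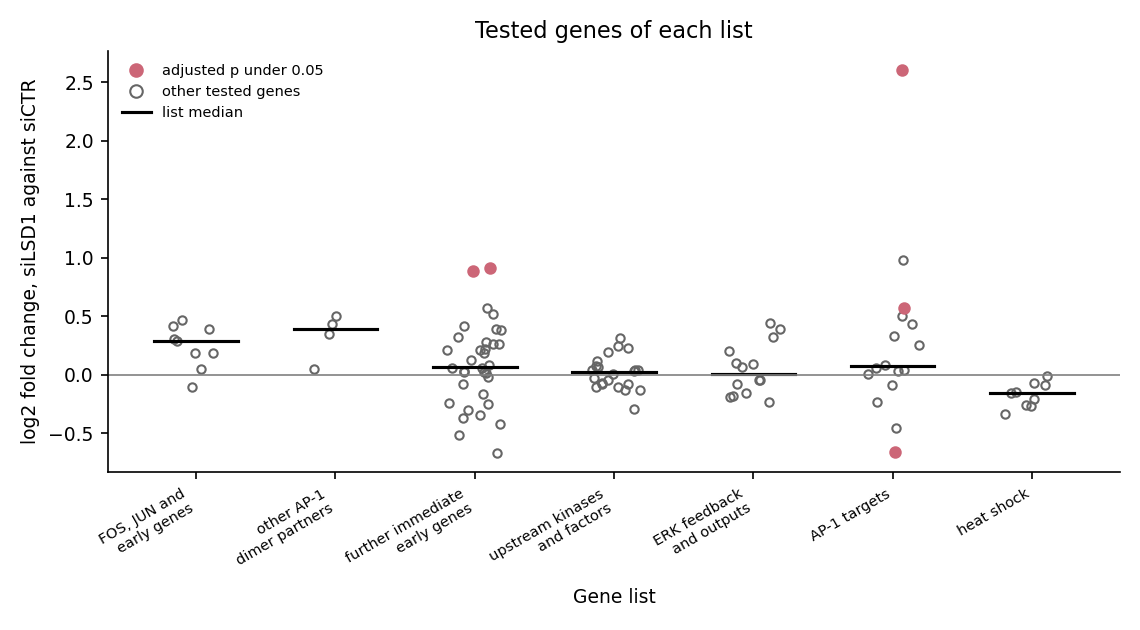
Log2 fold changes, siLSD1 against siCTR, of the tested genes in each list, filled red where the edgeR adjusted p is under 0.05 and open otherwise, with a bar at the list median. The 9 genes of the first column have a median of 0.29 and no filled point, and the filled points include CCN1 and CCN2 among the further immediate early genes and AREG and CCND1 among the AP-1 targets.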

How the data were processed

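RNA-seq libraries of U2OS cells, 3 with siCTR and 3 with siLSD1, were grouped and numbered from their labels. Clean reads had been aligned with STAR, and the authors deposited raw read counts per gene for the 6 libraries. They also deposited a normalized signal (counts divided by a size factor per library), FPKM values, and their own log2 fold changes and p-values, which were not used. Tables of single pairs hold a second set of counts, whose counting step is not stated. The genome build, annotation and counter are not given in the sources used here.

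Counts were compared by the quasi-likelihood test of edgeR 4.0.16 under R 4.3.3 (no covariates, TMM, low counts removed by filterByExpr at 10 reads), and p-values were adjusted over 11844 genes. Confidence intervals are 95% intervals of this fit. Alternatives were DESeq2 1.42.0, limma-voom (limma 3.58.1), other scalings and filters, a replicate block, the second counts, a GC content and length correction (lowess span 0.3, GENCODE 44, known for 99.3% of tested genes), and leaving out each library. Family shares came from the deposited FPKM values (exact permutation test, scipy 1.17.1, Python 3.11.15). The procedure was tested on simulated counts. There, 24.2% of genes with a log2 change of 0.5 passed the adjusted threshold, and 82% of genes with a change of 1. Missing the threshold therefore does not show that a gene was unchanged. Gene coordinates are those of GENCODE 44 on GRCh38 and promoters those of RefSeq. Of 15585 genes, 14963 matched a GENCODE symbol and 389 an older name. No pair of replicates was alike within counting error (chi-square divided by its degrees of freedom, 6.19 to 27.8).

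The members, lists and alternatives were chosen with earlier results of these data known. Besides the members and KDM1A, genes were named from each list when they passed an adjusted p of 0.05, at most the 4 with the largest change, or, where none passed, the 2 with the lowest unadjusted p under 0.05. The values of 1 gene of the AP-1 target list are not reported here. No member passed the adjusted threshold, so no genes were named for a pattern like that of a member. The depth was 12513511 to 13561344 reads per library.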

Additional observations from a re-analysis of the deposited data

How the results depend on the processing

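With other scaling, limma-voom, DESeq2, no filter, a stricter filter or the second counts, none of the 9 members passed the adjusted threshold and each kept the sign of its log2 fold change. Over all alternatives, 130 member values kept direction and side of the threshold, 7 moved past it and 7 changed sign. The count of members past the adjusted threshold was 0 and became 1 (DUSP1, edgeR adjusted p = 0.0397) with the replicate block, where 7.57% of all genes passed, and 3 (JUN, JUND and DUSP1) with the GC content and length correction, alone (8.60% of all genes) or with the replicate block (12.8%). At an unadjusted p under 0.05, 5 members were higher in both of the latter fits (12.7 and 14.5% of all genes), and with 1 library left out 1 to 4 (5.07 to 7.72%). With the GC content and length correction the log2 fold change was -0.0249 for FOSL2 and 0.0910 for JUNB, and with the block added -0.0240 and 0.0926. With 1 library left out it ran from -0.0613 to 0.15 for FOSL2 (-0.0050 without siLSD1 replicate 1) and from -0.0345 to 0.43 for JUND.

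Among all genes, 171 passed the adjusted threshold. The number was 323 with DESeq2, 290 without a filter, 897 with the replicate block, 1011 with the GC content and length correction, 1507 with both, and 58 to 136 with 1 library left out. At an unadjusted p under 0.05 there were 1662 genes, 2546 with the replicate block, 2916 with the GC content and length correction, 3390 with both, and 1061 to 1712 with 1 library left out. The lists held 4, 34, 22, 14, 16 and 9 tested genes. Of these, 5 passed the adjusted threshold, beside 1.44% of all genes. There were 15 with the replicate block (7.57% of all genes) and 21 with the GC content and length correction (8.60%). With both there were 26 (12.8%), and with 1 library left out 2 to 5 (0.483 to 1.14%). ATF7 and JDP2 passed with the replicate block (edgeR adjusted p = 0.00302 and 0.0310), and ATF7, MAPK9, ETV4 and HSPH1 with both (0.0182, 0.0108, 0.00606 and 0.0122). At the unadjusted threshold the list genes were 25, 39 with both and 16 to 26 with 1 library left out. Among all genes these were 1662 of 11844, 3390 of 11761 and 1061 to 1712. With 1 library left out, the difference in the share of FOSL1 ran from -0.627 to 3.45 percentage points, that of JUN from -0.164 to 2.39 and that of JUND from -0.948 to 4.36.

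Libraries with the same number correlated in their deviations from the group means over genes, with 0.328, 0.0744 and 0.310 for numbers 1, 2 and 3, and every library correlated best with its own number. The highest correlation between unlike numbers was 0.00720. Nothing in the labels says what a number marks, though the authors' tables of single pairs joined libraries of the same number. The main fit held no block, and whether the samples were paired was not settled. FOS, FOSB and EGR1 had 18 to 114 reads in each library, and the part of counting error in their spread was not tested. The cause of the changed calls was not tested.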

Other observations

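Among the further immediate early genes, several without an adjusted call went opposite ways, and they are named here after their values were seen. PPP1R15A, a stress-induced subunit of the phosphatase that restores translation, was at 24.6 ± 1.52 CPM with siCTR and 36.5 ± 5.25 CPM with siLSD1 (SD, n = 3 each), with a log2 fold change of 0.57 and an edgeR adjusted p of 0.0624. The Krüppel-like factors KLF4 and KLF6 had log2 fold changes of 0.38 and 0.41, with edgeR adjusted p-values of 0.133 and 0.139. In the other direction, the orphan nuclear receptor gene NR4A1 was at 56.6 CPM in siCTR and 43.7 CPM in siLSD1, a log2 fold change of -0.38, and GADD45B, a stress response gene, was at 10.1 and 7.03 CPM, a log2 fold change of -0.52. In edgeR their adjusted p-values were 0.253 and 0.211. For all 5 genes the siCTR and siLSD1 libraries did not overlap in CPM, an order that 11.4% of tested genes had in the higher and 9.97% in the lower direction.

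In the second set of read counts EGR1 had 1.24 times the reads of the first set, while FOS, FOSB, FOSL1, FOSL2, JUN, JUNB and DUSP1 had 1.08 to 1.12 times, near the median of 1.11 over genes.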
